A study of Mus musculus with 16 samples.

Results

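Cd36 and 7 other genes of fatty acid uptake were followed in mouse liver: the carriers Slc27a1, Slc27a2, Slc27a4 and Slc27a5, the lipase gene Lpl, the receptor gene Vldlr and the transcription factor gene Pparg. These 8 of 19938 genes on the array were selected by symbol, and the probe set with the highest mean level over all arrays was to stand for each gene; each of the 8 had exactly 1 probe set. The set was drawn up with earlier results of these data known, the difference of Cd36 between diets in heterozygotes among them, so that difference is given below as a description. The study crossed a null allele of Gli2, a transcription factor of hedgehog signalling, with diet, and took liver from adult mice, with 1 Affymetrix MoGene 1.0 ST array per animal. The groups were Gli2 heterozygous mice on a high-fat diet for 12 weeks, Gli2 heterozygous mice on a control diet for 12 weeks, wild-type mice on the same high-fat diet and wild-type mice on the same control diet, with 4 animals in each group. The genotype label of the wild-type animals reads Gli1_WT whereas the series text names only Gli2; they are taken here as wild type. The labels give neither sex nor strain.

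Fatty acids reach hepatocytes as albumin-bound free acids and inside lipoproteins. CD36 is a membrane receptor that takes up long-chain fatty acids and is also found on macrophages and capillary endothelium. The SLC27 proteins are transporters that also act as acyl-CoA synthetases, and SLC27A2 and SLC27A5 are the main forms of hepatocytes. LPL splits the triglycerides of circulating lipoproteins, VLDLR binds triglyceride-rich lipoproteins, and PPARG is a nuclear receptor that binds DNA with an RXR partner and is best known from adipocytes. Adult hepatocytes normally make little LPL, VLDLR and PPARG, and hepatic CD36 and PPARG are known to be higher in fatty liver.

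Start-site windows of Cd36 and Pparg are shown because both genes were higher on the high-fat diet in heterozygotes and nuclear receptors such as PPARG bind repeats of the core motif AGGTCA. RefSeq windows of assembly GRCm38.p6, each of 300 bases with 250 before and 50 after a transcript start, were found for 6 of the 8 genes, 11 windows in all; Slc27a5 and Lpl had none. Capitals mark AGGTCA, or TGACCT where it lies on the opposite strand.
Cd36, chr5:17835847-17836146, minus strand: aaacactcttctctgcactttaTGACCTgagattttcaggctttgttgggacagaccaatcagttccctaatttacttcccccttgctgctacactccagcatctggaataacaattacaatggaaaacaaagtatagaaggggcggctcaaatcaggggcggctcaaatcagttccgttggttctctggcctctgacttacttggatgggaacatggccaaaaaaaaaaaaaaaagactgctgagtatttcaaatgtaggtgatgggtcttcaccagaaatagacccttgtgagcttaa
Pparg, first window, chr6:115360894-115361193, plus strand: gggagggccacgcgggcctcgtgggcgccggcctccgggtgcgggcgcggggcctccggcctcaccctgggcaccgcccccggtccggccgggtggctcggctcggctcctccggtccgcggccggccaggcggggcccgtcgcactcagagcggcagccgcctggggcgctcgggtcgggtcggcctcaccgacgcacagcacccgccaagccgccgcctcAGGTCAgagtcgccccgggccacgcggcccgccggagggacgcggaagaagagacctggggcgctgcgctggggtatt
Pparg, second window, chr6:115362099-115362398, plus strand: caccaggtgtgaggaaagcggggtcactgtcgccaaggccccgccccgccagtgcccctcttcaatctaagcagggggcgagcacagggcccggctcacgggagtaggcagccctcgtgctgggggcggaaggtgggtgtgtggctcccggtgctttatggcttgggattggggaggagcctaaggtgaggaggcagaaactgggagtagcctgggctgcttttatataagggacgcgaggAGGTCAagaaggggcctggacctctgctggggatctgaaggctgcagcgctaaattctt
Counted from the transcript start, the motif began at -228 in Cd36, and at -28 and -9 in the windows of Pparg. AGGTCA was searched on both strands and lies in 4 of the 11 windows, against 16.26% of the 32817 windows of all genes. The fourth is that of Slc27a2, at -220 on the opposite strand, a gene with little difference between the diets. Both windows of Vldlr, which was higher like Cd36 and Pparg, and the third window of Pparg do not hold these letters. An exact direct repeat of it with 1 base between the copies was found in 0.0396% of all windows and in none of the 11. The Gli motif GACCACCCA, also searched on both strands, was found in 0.253% of all windows and in none of the 11. These are matches of letters, not measured binding sites.

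Levels are log2 values, so a difference of 1 is a doubling, and each is relative to the other arrays. Array 2 of the heterozygous control group, called Het_control 2 below, stood apart: over genes it correlated at 0.961 to 0.979 with the rest, while the remaining 15 arrays correlated at 0.990 to 0.997 with each other. Its levels also spread less over genes, with an interquartile range of 1.95 where the remaining arrays had 2.40 to 2.60. It was kept, and many of the results that it affects are also given without it. Other arrays are named likewise, with HFD for the high-fat diet, Het for Gli2 heterozygous and WT for wild type; animals are numbered by record order, and equal numbers do not pair them. The 8 hepatocyte markers had a mean level of 13.55 to 13.70 in every array, as the tissue label says. Over the 16 arrays the 4 adipocyte markers measured read 5.98 to 6.42 for Adipoq, 6.54 to 7.05 for Lep, 7.70 to 8.24 for Retn and 7.99 to 8.76 for Plin1. Het_control 2 had the highest mean of these 4, 7.62 against 7.11 to 7.32 in the others, and of 6 striated muscle markers, 8.19 against 7.81 to 7.97. The same array had the lowest mean of the 16 for hepatocyte (13.55), macrophage (9.79), endothelial (9.93) and stellate cell markers (9.92). The cause of these shifts was not tested. The Gli2 probe set averaged 7.53 ± 0.07 and 7.70 ± 0.30 in heterozygotes on high-fat and on control diet, against 7.51 ± 0.08 and 7.57 ± 0.02 in wild type on the same diets (SD, n = 4 each). Its genotype difference over both diets was 0.08 (SE 0.07, 95% interval -0.08 to 0.23), so the array did not separate the genotypes at this gene. The position of its probes relative to the deletion was not checked. Of the heterozygous controls, Het_control 2 read 8.14 for Gli2 and the others 7.50 to 7.59.

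In heterozygotes the high-fat diet went with higher Cd36, Vldlr and Pparg, while the SLC27 transporter genes of hepatocytes stayed within narrow ranges. In all, 3 of the 8 genes were called higher and none lower by limma at an adjusted p under 0.05, against 1.5% of all genes called higher and 0.712% called lower. Cd36 is counted among the 3, and its part in that count was known when the set was drawn up. The groups did not overlap, with all 4 arrays higher, for 4 of the 8 genes, against 6.58% of all genes. The median difference of the 8 was 0.34, against -0.05 over all genes. None of the 3 was called when the fit held only the 8 heterozygous arrays, with adjusted p of 0.114 for Vldlr and 0.166 for Pparg, and over all probe sets of the table these were 0.0677 and 0.0583.

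Cd36 read 11.49, 11.30, 11.67 and 11.76 in heterozygotes on the high-fat diet, against 10.20, 9.16, 10.68 and 10.44 in heterozygotes on the control diet. Every high-fat animal lay above every control animal, and Het_control 2, with 9.16, was the lowest of all 16 arrays. The difference was 1.44 (SE 0.26, 95% interval 0.88 to 1.99), or 2.71-fold, and 1.12 without Het_control 2. In wild type Cd36 read 10.85, 10.66, 11.40 and 11.74 on the high-fat diet, against 10.91, 10.80, 11.14 and 11.03 on the control diet. Those groups overlapped: animals 3 and 4 of the high-fat group lay above all wild-type controls and animals 1 and 2 close to or below the lowest of them. The sample titles give animals 3 and 4 of that group the same number, and animals 1 and 2 each a different one. What this number means is not stated. The mean order was heterozygotes on high-fat diet (11.56 ± 0.20), wild type on high-fat diet (11.16 ± 0.50), wild type on control diet (10.97 ± 0.15) and heterozygotes on control diet (10.12 ± 0.67; SD, n = 4 each). Among neighbours in that order, the ranges were apart only between wild type and heterozygotes on control diet.

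**Figure D1:**
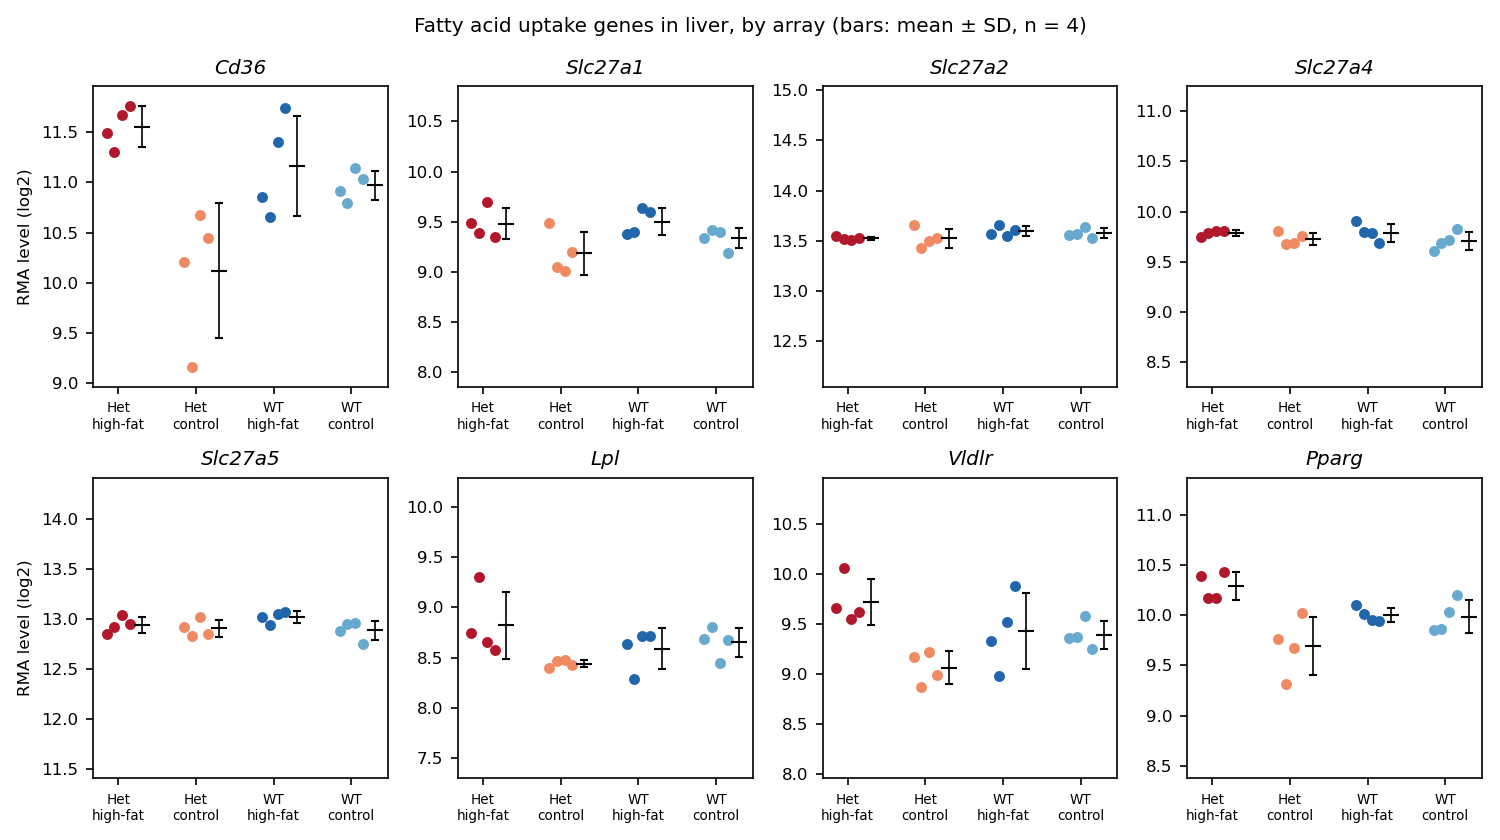
Log2 RMA level of each of the 8 genes (vertical axis; every panel spans the same number of log2 units but has its own centre) in the 4 groups, with 1 point per array and bars for the mean ± SD (n = 4). Cd36, Vldlr and Pparg are higher in heterozygotes on the high-fat diet than in those on the control diet, and Slc27a2, Slc27a4 and Slc27a5 are nearly level across the groups.

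Vldlr, the receptor for triglyceride-rich lipoproteins, read 9.66, 10.06, 9.55 and 9.62 in heterozygotes on the high-fat diet, against 9.17, 8.87, 9.22 and 8.99 in those on the control diet. All high-fat animals were above all controls, with animal 2 of the high-fat group the highest of the 16 arrays. The difference was 0.66 (SE 0.15, limma adjusted p = 0.0415), or 1.58-fold. The call was kept in 4 of the 16 fits that left out 1 array (WT_control 3, Het_control 4, WT_HFD 2 or WT_HFD 4), and the highest adjusted p was 0.121; it was 0.0743 without Het_control 2. In wild type Vldlr read 9.33, 8.98, 9.52 and 9.88 on the high-fat diet, against 9.36, 9.37, 9.58 and 9.25 on the control diet. The wild-type high-fat animals spread below and above the controls, with a mean of 9.43 ± 0.38 against 9.39 ± 0.14 (SD, n = 4 each).

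Pparg read 10.39, 10.17, 10.17 and 10.43 in heterozygotes on the high-fat diet, against 9.77, 9.32, 9.67 and 10.02 in those on the control diet. The groups did not overlap, although animal 4 of the control group came close to the lowest high-fat animals. The difference was 0.60 (SE 0.12, limma adjusted p = 0.0257), or 1.51-fold. It was 0.47 without Het_control 2 (adjusted p = 0.0344), and the call was lost without Het_control 3 or any of the 4 high-fat animals, with adjusted p up to 0.0839. In wild type Pparg read 10.10, 10.01, 9.96 and 9.95 on the high-fat diet, against 9.85, 9.86, 10.03 and 10.20 on the control diet. Here the controls spanned the high-fat animals, with an SD of 0.07 among the high-fat animals and 0.17 among the controls (n = 4 each).

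Lpl read 8.74, 9.31, 8.65 and 8.58 in heterozygotes on the high-fat diet, against 8.40, 8.46, 8.47 and 8.42 in those on the control diet. The groups were apart, but animal 2 of the high-fat group stood well above the others, the same animal that was highest for Vldlr. The difference was 0.38 (SE 0.13, 95% interval 0.10 to 0.66, limma adjusted p = 0.0936), which missed the threshold, and it was 0.22 without that animal. In wild type Lpl read 8.63, 8.29, 8.72 and 8.71 on the high-fat diet, against 8.68, 8.80, 8.45 and 8.67 on the control diet, and the groups overlapped.

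Among the transporters, Slc27a1, the form best known from muscle and fat, had the widest spread. It read 9.49, 9.39, 9.70 and 9.35 in heterozygotes on the high-fat diet, against 9.48, 9.05, 9.01 and 9.20 in those on the control diet. Animal 1 of the control group lay inside the high-fat range, and the difference of 0.29 (SE 0.10, 95% interval 0.07 to 0.51) was not called (limma adjusted p = 0.0983). Its wild-type values were 9.38, 9.39, 9.63 and 9.60 on the high-fat diet, against 9.34, 9.42, 9.40 and 9.19 on the control diet, also with overlap.

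The hepatocyte transporters showed little spread between animals, so their intervals are narrow. Slc27a2, which also activates very long-chain fatty acids in peroxisomes, read 13.55, 13.51, 13.51 and 13.53 in heterozygotes on the high-fat diet, against 13.65, 13.43, 13.49 and 13.52 in those on the control diet. In wild type it read 13.56, 13.66, 13.55 and 13.61 on the high-fat diet, against 13.56, 13.57, 13.64 and 13.53 on the control diet. The diet difference of Slc27a2 had a 95% interval of -0.12 to 0.12 in heterozygotes. Slc27a5, the liver form that also conjugates bile acids to coenzyme A, read 12.86, 12.92, 13.04 and 12.95 in heterozygotes on the high-fat diet, against 12.92, 12.83, 13.02 and 12.85 in those on the control diet. Its wild-type values were 13.02, 12.94, 13.05 and 13.07 on the high-fat diet, against 12.88, 12.95, 12.96 and 12.75 on the control diet. The intervals of the diet difference of Slc27a5 were -0.10 to 0.18 in heterozygotes and -0.01 to 0.27 in wild type. Slc27a4, the form best known from intestine and skin, read 9.74, 9.78, 9.81 and 9.80 in heterozygotes on the high-fat diet, against 9.80, 9.68, 9.68 and 9.75 in those on the control diet. In wild type Slc27a4 read 9.90, 9.79, 9.78 and 9.68 on the high-fat diet, against 9.60, 9.68, 9.71 and 9.82 on the control diet. Diet groups overlapped for these 3 genes in both genotypes. On the log2 scale of the array, their heterozygous intervals exclude a difference as large as that of Vldlr or Pparg. The upper ends were 0.12, 0.18 and 0.19 for Slc27a2, Slc27a5 and Slc27a4. Slc27a2 and Slc27a5 read high on this array, where Alb read 13.82 to 14.04, and whether differences shrink at such levels was not tested.

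In wild type, none of the 8 genes was called between the diets and none had groups apart; limma called 0% of all genes higher there, and 3.51% of genes had all 4 high-fat arrays above the controls. None of the 8 reached an unadjusted p under 0.05 either, while 1282 of all genes did. The count over all genes depended on the setting. With only the 8 wild-type arrays fitted, 5 genes were called higher and 1 lower, against 2 and 5 in heterozygotes fitted likewise. Array weights called 131 higher and 88 lower in wild type, against 662 and 405 in heterozygotes. The difference was 0.19 for Cd36 (95% interval -0.36 to 0.75), 0.04 for Vldlr (-0.28 to 0.36), 0.02 for Pparg (-0.23 to 0.27) and -0.06 for Lpl (-0.34 to 0.22), with limma adjusted p of 0.949 or more. Those of Slc27a1, Slc27a2, Slc27a4 and Slc27a5 were 0.16, 0.02, 0.08 and 0.13. These intervals leave room for a rise of Cd36 in wild type of up to 0.75. The median of the 8 was 0.06, against -0.01 over all genes.

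Whether the diet difference itself differed between genotypes was tested with the interaction, heterozygous difference minus wild-type difference, which contains the heterozygous contrast known for Cd36. It was 1.24 for Cd36 (SE 0.37, 95% interval 0.46 to 2.03), 0.62 for Vldlr (SE 0.22, 0.16 to 1.07), 0.58 for Pparg (SE 0.17, 0.23 to 0.94) and 0.45 for Lpl (SE 0.19, 0.05 to 0.84). The Cd36 value is a description; for Vldlr, Pparg and Lpl the unadjusted p was under 0.05, but none passed after adjustment, with limma adjusted p of 0.475, 0.387 and 0.565. No gene of the array was called higher (0%), although 1621 had an unadjusted p under 0.05, so the larger diet difference in heterozygotes is not established by this test for any of the 8. Without Het_control 2 the Cd36 value was 0.92 and the Pparg value 0.46. The other 4 genes had values of 0.13 for Slc27a1, -0.02 for Slc27a2, -0.03 for Slc27a4 and -0.10 for Slc27a5.

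**Figure D2:**
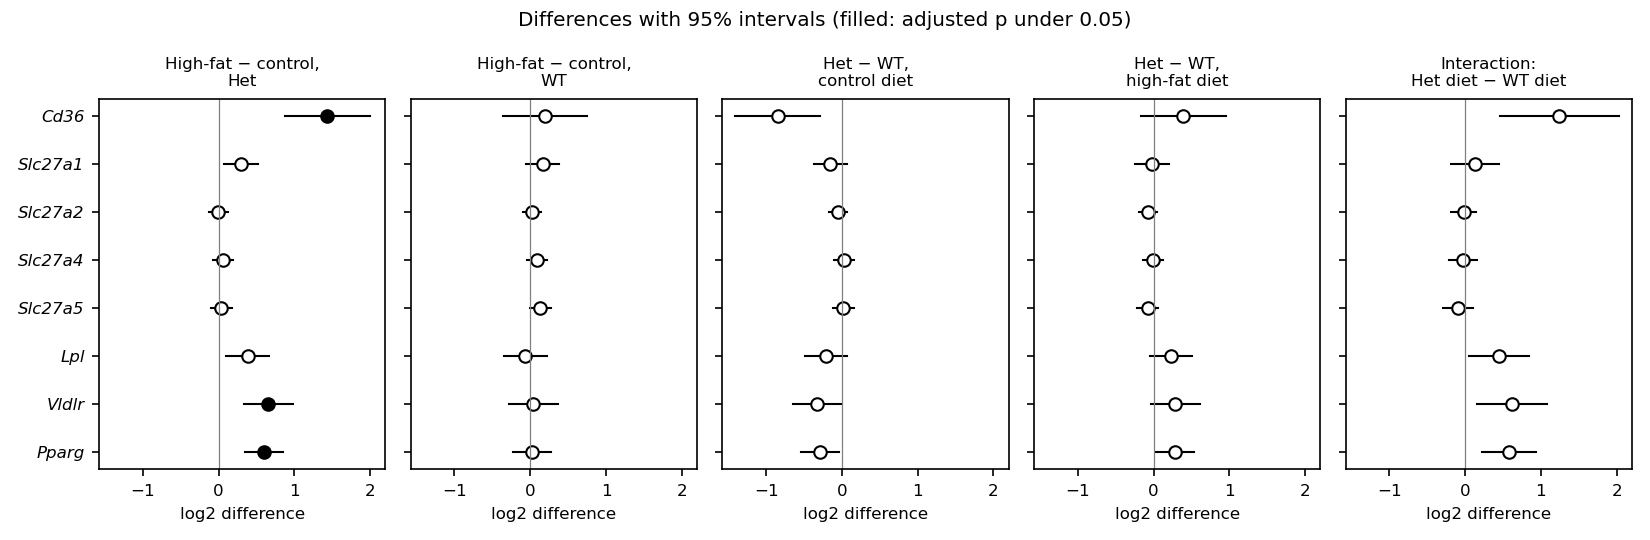
Log2 differences of the 8 genes with 95% intervals (horizontal axis) in 5 contrasts, with filled points for a limma adjusted p under 0.05. Filled points occur for Cd36, Vldlr and Pparg in the diet contrast of heterozygotes, and the intervals of the same genes in wild type cover 0.

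Between the genotypes on the control diet, Cd36 and Vldlr were lower in every heterozygote than in every wild-type animal, without passing the test. Those 2 of the 8 genes had groups apart in this direction, against 2.1% of all genes. The Cd36 difference was -0.85 (SE 0.26, 95% interval -1.41 to -0.29, limma adjusted p = 0.279), and -0.53 without Het_control 2. For Vldlr it was -0.33 (SE 0.15, adjusted p = 0.314) and for Pparg -0.29 (SE 0.12, adjusted p = 0.300), or -0.17 without Het_control 2. Lpl differed by -0.21, Slc27a1 by -0.15, Slc27a2 by -0.05, Slc27a4 by 0.02 and Slc27a5 by 0.02. No gene of the array was called higher (0%). An unadjusted p under 0.05 was found for 3135 of all genes and for 3 of the 8, Cd36, Vldlr and Pparg.

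On the high-fat diet the order of the genotypes was the other way for the same genes, again without a call. Pparg was higher in all 4 heterozygotes than in all wild-type animals, with a difference of 0.29 (SE 0.12, 95% interval 0.04 to 0.54), and 2.18% of all genes had groups apart in that direction. Slc27a2 was lower in all 4 heterozygotes, by -0.07 (SE 0.06, 95% interval -0.19 to 0.05), and 1.57% of all genes had groups apart downward. Cd36 differed by 0.40, Vldlr by 0.29 and Lpl by 0.23, with overlap. Slc27a1, Slc27a4 and Slc27a5 differed by -0.02, -0.01 and -0.08. Limma adjusted p was 0.9996 for all 8, and 0.00502% of genes were called higher; only Pparg had an unadjusted p under 0.05. The 4 simple contrasts share their groups, so the values on the 2 diets are not independent of the diet differences above.

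Averaged over both genotypes, the Cd36 difference between diets was 0.81 (SE 0.19, 95% interval 0.42 to 1.21), and 0.65 without Het_control 2. That average contains the heterozygous difference known when the set was drawn up, so it is a description too. Of the other 7 genes none was called; limma called 1.35% of all genes higher and 0.512% lower, Cd36 among the higher ones. Vldlr differed by 0.35 (adjusted p = 0.0905), Pparg by 0.31 (adjusted p = 0.0666) and Slc27a1 by 0.23 (adjusted p = 0.0984). Lpl differed by 0.16, Slc27a5 by 0.08, Slc27a4 by 0.07 and Slc27a2 by 0.01. Genotype averaged over both diets gave no call among the 8, against 0.00502% of all genes called higher, and no unadjusted p under 0.05. Those differences were -0.23 for Cd36 (-0.067 without Het_control 2, and 0.040 with array weights), -0.09 for Slc27a1, -0.06 for Slc27a2, 0.01 for Slc27a4, -0.03 for Slc27a5, 0.01 for Lpl, -0.02 for Vldlr and -0.0014 for Pparg.

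**Figure D3:**
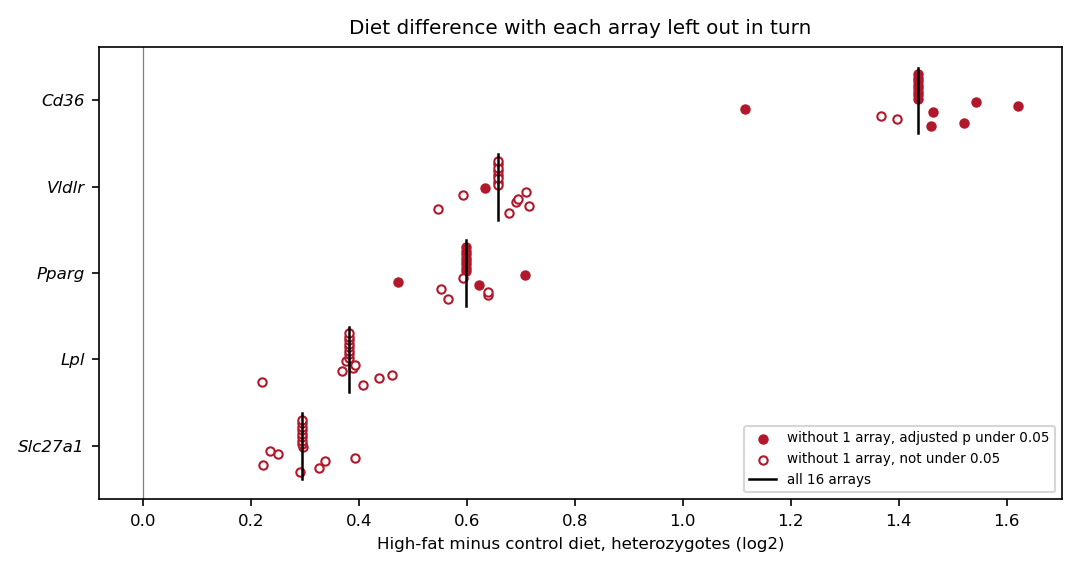
Diet difference in heterozygotes (log2, horizontal axis) for 5 genes, with 1 point for each of 16 fits that leave out 1 array and a vertical line for the fit with all 16; filled points have an adjusted p under 0.05. Cd36 runs between 1.12 and 1.62 and Vldlr between 0.55 and 0.72, and no fit turned the direction of these 5 genes. Fits without a wild-type array cannot move these differences, since each group has its own mean, and change only the adjusted p.

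CD36, VLDLR and LPL are also products of macrophages, and macrophage markers moved in the same contrast. All 13 macrophage and Kupffer cell markers measured had positive diet differences in heterozygotes, with a median of 0.58, and limma called 8 higher: Vsig4, Adgre1, Cd68, Csf1r, C1qb, C1qc, Lyz2 and Tyrobp. Without Het_control 2 the median was 0.48 and 4 were called, Vsig4, Cd68, C1qb and Tyrobp. That count ran from 1, Tyrobp, without Het_HFD 2 or Het_HFD 3, to 9 without Het_control 4, and it was under 5 in 12 of the 16 fits without 1 array. Over all probe sets 1 was called, Tyrobp, and with only the 8 heterozygous arrays none was (smallest adjusted p = 0.129). Their mean log2 level ran over 10.40 to 10.78 in heterozygotes on the high-fat diet, against 9.79 to 10.29 in heterozygotes on the control diet. In wild type it ran over 10.01 to 10.57 on the high-fat diet, against 10.25 to 10.40 on the control diet, with none called and a median of -0.04. In whole liver, more cells of a type and more RNA per cell cannot be told apart. Of the 9 endothelial markers none was called, whose mean level was 10.22 to 10.32 in high-fat heterozygotes, against 9.93 to 10.36 in control heterozygotes. Of the 6 stellate cell markers 1, the retinol-esterifying enzyme gene Lrat, was called higher, and none without Het_control 2. None of the 4 adipocyte and 6 muscle markers was called. Between the genotypes on the control diet, the macrophage markers had a median of -0.35, with 3 of 13 positive. The endothelial markers had -0.27, with 1 of 9 positive, against 0.04 over all genes. Without Het_control 2 these medians were -0.25 and -0.20, against 0.01. On the high-fat diet they were 0.30 and 0.05, against 0.01. No marker of these 2 lists was called between the genotypes on either diet.

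Member levels followed the macrophage markers to different degrees over the 16 animals. For Vldlr, Pearson's r with the mean of the 13 markers was 0.91 and Spearman's rho 0.87 (permutation p = 2.0e-05 and 5.0e-05, adjusted 0.00032 and 0.0008 over 16 tests). Both Cd36 (r = 0.84, rho = 0.85, permutation p = 5.0e-05 and 0.0001, adjusted 0.0004 and 0.0008) and Lpl (r = 0.80, rho = 0.79, permutation p = 0.00021 and 0.00055, adjusted 0.00112 and 0.00293) were also high. Leaving out the 2 animals farthest from the median of each gene gave r of 0.87 for Vldlr, 0.81 for Cd36 and 0.71 for Lpl. The Cd36 values over all animals, p included, are a description, since they contain the heterozygous diet difference known when the set was drawn up. The differences between the groups enter all these values, so each group's mean was also subtracted. Within groups, r was then 0.82 for Vldlr and 0.65 for Lpl (permutation p = 0.00276 and 0.00253, both adjusted 0.0221), 0.67 for Cd36 (p = 0.0476, adjusted 0.254) and 0.03 for Pparg (p = 0.937, adjusted 0.964). Pparg had r = 0.62 and rho = 0.54 over all animals (permutation p = 0.0110 and 0.0338, adjusted 0.0438 and 0.135), and r = 0.44 without the 2 farthest animals. Slc27a1, Slc27a2, Slc27a4 and Slc27a5 had r of 0.47, -0.04, 0.03 and 0.25, and no gene had an adjusted p under 0.05 with the endothelial mean. Without Het_control 2, r with the macrophage mean was 0.89 for Vldlr, 0.77 for Cd36, 0.84 for Lpl and 0.42 for Pparg. Within groups those values were 0.81, 0.56, 0.75 and -0.42 without that array, in the same order. Values within groups were not computed without the 2 farthest animals, which for Lpl were Het_HFD 2 and WT_HFD 2. The part of macrophage RNA in the Cd36, Vldlr and Lpl differences was not tested.

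Among the 8 genes themselves, 4 of 28 pairs had a Pearson permutation p that passed adjustment over the pairs, and none did after the group means were subtracted. The permutations over all animals shuffled them across the groups, so group differences enter those p-values. Values of the pairs with Cd36 are a description, since they contain its heterozygous diet difference, known when the set was drawn up. Cd36 and Vldlr had r = 0.81 and rho = 0.89 (permutation p = 9.0e-05 and 3.0e-05, adjusted 0.00252 and 0.00084), with r = 0.80 without the 2 animals farthest in Cd36 and 0.56 within groups (p = 0.0540, adjusted 0.275). Cd36 and Pparg had r = 0.80 and rho = 0.65 (permutation p = 0.00036 and 0.00741, adjusted 0.00345 and 0.0692). That relation rested partly on Het_control 2: r was 0.54 without the 2 farthest animals, of which it was 1, and the value within groups was 0.49 with it and -0.02 without it. Lpl and Vldlr had r = 0.76 and rho = 0.70 (permutation p = 0.00037 and 0.00343, adjusted 0.00345 and 0.0480), with r = 0.57 without the 2 animals farthest in Lpl. Cd36 and Slc27a1 had r = 0.64 and rho = 0.51 (permutation p = 0.00663 and 0.0480, adjusted 0.0464 and 0.149), with r = 0.60 without the 2 farthest. Over all other genes, 571 followed Cd36 with a higher r than Vldlr did and 634 with a higher r than Pparg did, so neither was among the nearest to Cd36.

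**Figure D4:**
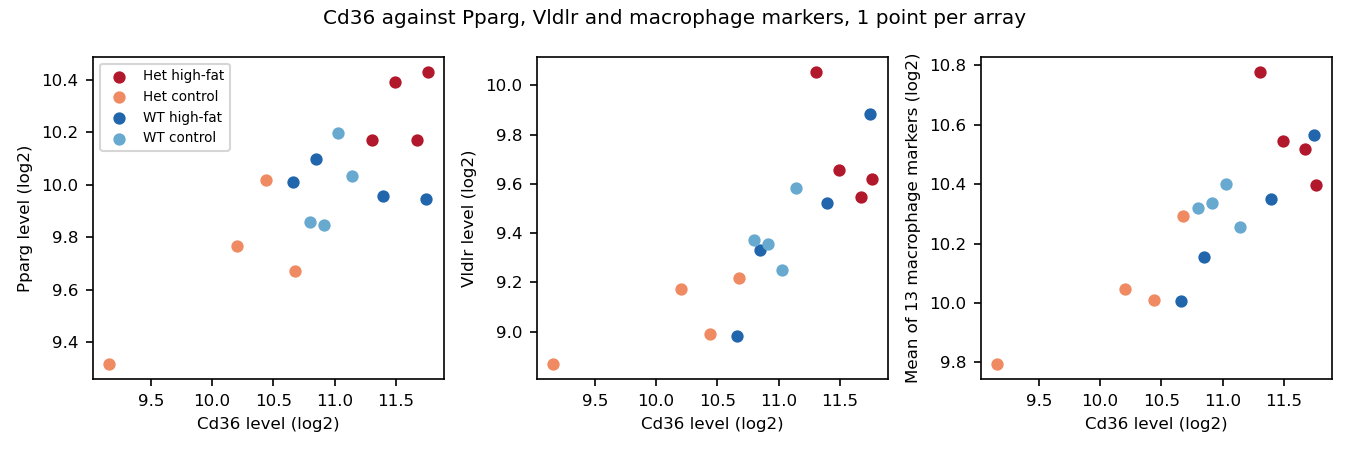
Levels in the 16 arrays, with Cd36 (log2, horizontal axis) against Pparg, Vldlr and the mean of 13 macrophage markers (log2, vertical axes); each point is 1 array, coloured by group. Het_control 2 is the point at the lower left of each panel, and Pearson's r is 0.80, 0.81 and 0.84.

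The genes with the highest correlation to Cd36 over the 16 arrays were Vsig4, a complement receptor of Kupffer cells (0.95), the fatty acid binding protein gene Fabp7 (0.94), Cd300ld (0.94), Creg1 (0.93) and Cryzl2 (0.92). The lowest were Rpl22 (-0.93), 4930571K23Rik (-0.92) and Cadm4 (-0.91). After the group means were subtracted the highest were Vnn3 (0.92), Vsig4 (0.91), Pcca (0.89), Kctd20 (0.89) and Srr (0.89). Without Het_control 2 the pooled value was 0.90 for Vsig4, 0.87 for Fabp7, 0.89 for Cd300ld, 0.86 for Creg1 and 0.85 for Cryzl2. That of Vnn3 was 0.50 without this array and 0.79 with it. For Pcca, Kctd20 and Srr the pooled values without it were 0.82, 0.76 and 0.77. Values with the group means subtracted were not computed without it for these genes. Nearest to Vldlr were the macrophage lysozyme gene Lyz2 (0.95) and Plek (0.95), and nearest to Lpl were the cathepsin gene Ctss (0.89) and Gngt2 (0.88). For Pparg they were Cdk5 (0.94) and Mrpl10 (0.93), for Slc27a1 the acyl-CoA synthetase gene Acsf2 (0.90) and Cryz (0.87), and for Slc27a2 the acyl-CoA thioesterase gene Acot12 (0.88) and Zfand6 (0.87). Slc27a4 lay nearest to Jtb (0.87) and Tbl3 (0.86), and Slc27a5 to Gpld1 (0.90) and Mettl7a1 (0.88). These values describe 16 arrays and were picked as the extremes of 19938 genes, so they carry no test.

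Beyond the 8 genes, the other genes of fatty acid transport, binding and activation split in direction. Of 15 measured, limma called Fabp7 higher and Fabp5 lower between the diets in heterozygotes, with a list median of -0.01. Fabp7 read 10.27, 10.42, 10.23 and 10.42 in heterozygotes on the high-fat diet, against 9.29, 8.21, 9.36 and 9.36 in those on the control diet, a difference of 1.28 (SE 0.21, adjusted p = 0.0118). Its groups were apart, with Het_control 2 far below the other controls, and the difference was 0.99 without it. Fabp5 read 9.01, 9.09, 8.76 and 8.69 in heterozygotes on the high-fat diet, against 11.50, 11.48, 12.44 and 10.80 in those on the control diet, a difference of -2.67 (SE 0.41, adjusted p = 0.00811). Averaged over both genotypes Fabp5 fell by 2.25 (SE 0.29, adjusted p = 0.00375).

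Of 16 measured genes of lipoprotein lipolysis and remnant uptake, 1 was called in heterozygotes, with a list median of -0.05. That was Angptl4, a secreted inhibitor of LPL, which differed by -0.53 (SE 0.13, adjusted p = 0.0494) and was not called without Het_control 2. It read 10.69, 10.41, 10.77 and 10.94 in heterozygotes on the high-fat diet, against 11.22, 11.32, 11.22 and 11.15 in those on the control diet. Over both genotypes Lmf1, whose product folds LPL, was higher by 0.22 (SE 0.05, adjusted p = 0.0302).

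Of 15 measured nuclear receptors and partners, 2 were called higher in heterozygotes and none lower, with a list median of 0.04. Nr1h3, the liver X receptor alpha gene, differed by 0.38 (SE 0.08, adjusted p = 0.0352), and Rxrg, which encodes an RXR partner, by 0.39 (SE 0.10, adjusted p = 0.0499). Nr1h3 read 10.92, 11.14, 11.08 and 10.99 in heterozygotes on the high-fat diet, against 10.68, 10.42, 10.72 and 10.78 in those on the control diet, with no overlap. Without Het_control 2 Nr1h3 was still called and Rxrg was not. Over both genotypes Rxrg differed by 0.32 (SE 0.07, adjusted p = 0.0298) and Nr1h3 by 0.23 (SE 0.06, adjusted p = 0.0480).

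Other genes named in the literature as PPARG targets or lipid droplet genes of fatty liver did not all move in the direction of Pparg. The 8 genes above, Cd36, Vldlr and Lpl among them, are not in this list. Of 17 measured, 1 was called higher and 4 lower in heterozygotes, with 7 positive differences and a list median of -0.05. The part of PPARG in any of these differences was not tested. Fitm1, which promotes lipid droplet formation, differed by 1.08 (SE 0.25, adjusted p = 0.0417) and was not called without Het_control 2. The droplet coat genes Plin4 and Plin5 differed by -0.40 and -0.52 (SE 0.07 and 0.09, adjusted p = 0.0152 and 0.0165), Lpin1, a phosphatidate phosphatase gene, by -1.17 (SE 0.21, adjusted p = 0.0167), and Angptl4 as given above. Plin5 read 9.22, 9.22, 9.35 and 9.34 in heterozygotes on the high-fat diet, against 9.92, 9.86, 9.80 and 9.62 in those on the control diet, with no overlap. Plin4, Plin5 and Lpin1 were still called lower without Het_control 2. Over both genotypes Fitm1 differed by 0.83, Plin4 by -0.35, Plin5 by -0.37 and Lpin1 by -0.66, with limma adjusted p of 0.0282, 0.00594, 0.0137 and 0.0341. In wild type none of the genes of these 4 lists was called, and none was called by the interaction. Wild-type differences of the 9 genes called in heterozygotes were -1.82 for Fabp5, -0.12 for Fabp7, -0.11 for Angptl4 and 0.08 for Nr1h3. They were 0.25 for Rxrg, -0.29 for Plin4, -0.23 for Plin5, 0.57 for Fitm1 and -0.15 for Lpin1. The smallest unadjusted limma p of these were 0.00035 for Fabp5 and 0.00058 for Plin4 (adjusted 0.263 and 0.298). With only the 8 heterozygous arrays fitted, Fabp5 alone of the 9 genes named here for heterozygotes was called (adjusted p = 0.00899). The adjusted p was then 0.109 for Fabp7, 0.189 for Nr1h3, 0.226 for Rxrg, 0.131 for Angptl4, 0.215 for Fitm1, 0.111 for Plin4, 0.0934 for Plin5 and 0.0821 for Lpin1. Of the 16 fits without 1 array, Fabp5 and Fabp7 were called in all, Plin4, Plin5 and Lpin1 in 15 (lost without Het_HFD 2 for the Plin genes and without Het_HFD 3 for Lpin1), Nr1h3 in 13 (lost without Het_HFD 2, 3 or 4), Fitm1 in 4, Angptl4 in 2 and Rxrg in 2.

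**Figure D5:**
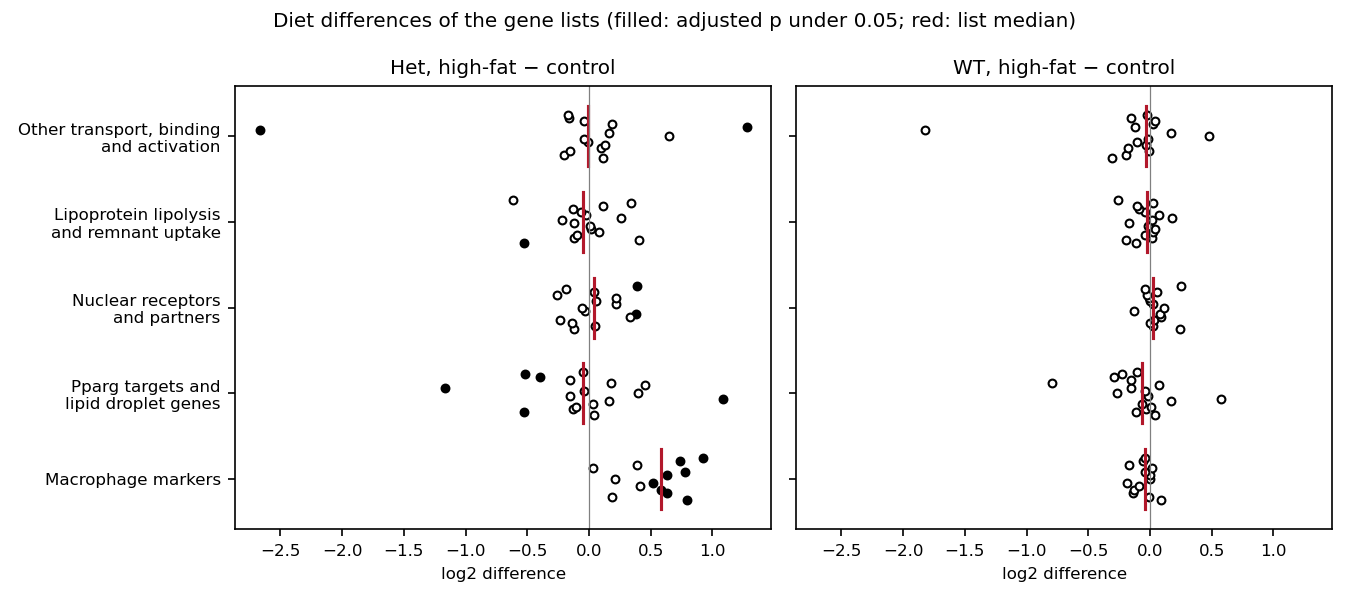
Diet differences (log2, horizontal axis) of the genes of 5 lists in heterozygotes and in wild type, with 1 point per gene, filled for a limma adjusted p under 0.05, and a red bar at each list's median. The macrophage markers have a median of 0.58 in heterozygotes and -0.04 in wild type, and the medians of the other lists lie within 0.07 of 0.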

How the data were processed

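Per the submitters' processing notes, the authors ran RMA in Affymetrix Expression Console, and the deposited table holds the resulting log2 values of 35556 probe sets; no source used here names versions or a genome build. RMA equalises the intensity distributions of arrays, which hides a shift common to all transcripts. The platform annotation gave 1 symbol to 21789 probe sets, several to 1621 and none to 12146; symbols were updated with RefSeq (19856 of 19938 genes matched), and the probe set with the highest mean stood for the 999 genes with several. A group mean per group was fitted to all 16 arrays with limma 3.58.1 (R 4.3.3; lmFit and eBayes), giving 7 contrasts, adjusted by the Benjamini-Hochberg method over 19938 genes; the fit was tested on simulated data. The alternatives were only the 8 arrays compared, trend and robust moderation, array weights, all probe sets, repeated quantile normalization, genes above the median level, the title number as a random block (statmod 1.5.0) and each array left out. Correlations used 100000 permutations, from both sides. The number of arrays limits the precision.

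The 8 genes and the lists were chosen with earlier results of these data known. Named are all 8, the called genes of the 4 lists that are not cell type markers, and, by correlation over arrays, the 5 highest and 3 lowest for Cd36 and the 5 highest after centring, with the 2 highest for each other member. Called cell type markers are named in addition. Figures were drawn with matplotlib 3.10.9 in Python 3.11.15.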

Additional observations from a re-analysis of the deposited data

How the results depend on the processing

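Of 1320 recomputed differences of the 8 genes, 1212 kept their direction and their side of the threshold, 35 lost a call, 9 gained one and 64 changed sign. The causes were not tested, except that fewer arrays or more probe sets change the adjustment by construction. Many of the 1320 could not change direction, so the number that kept it is no measure of stability. Trend and robust moderation, all probe sets, genes above the median level and only the 8 arrays compared leave each difference as it is. So does leaving out an array of a group outside the contrast. Only Cd36, Vldlr and Pparg had a call to lose. Of the 8 genes, 3 were called between diets in heterozygotes. That count was 0 when only the 8 arrays of the contrast were fitted (2 genes higher and 5 lower over the array), 1, Cd36, over all probe sets, and 5 with a random block by title number, which called 2896 genes higher and 4042 lower; with 1 array left out the count ran from 0 (without Het_HFD 3 or 4) to 3, and it was 1 without Het_control 3, Het_HFD 1 or Het_HFD 2. Over both genotypes the 1 called gene became 2 with array weights, 0 over all probe sets and 4 with the random block, and ran from 0 to 2 with 1 array left out. The title number's meaning is not stated. No number occurred in both diets among heterozygotes, so diet and number cannot be told apart there. Of 11 numbers, 5 stood on more than 1 array. Arrays of 1 group that share a number are WT_control 2 and 4, Het_control 2 and 3, WT_HFD 3 and 4, and Het_HFD 2 and 3. Apart from the random block, the fits and permutations took all animals as independent.

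Most changes of sign touched values near 0. The exceptions were 2 values of Cd36. Its genotype difference over both diets was -0.23 as reported. Its wild-type diet difference was 0.19 as reported and -0.00172 without WT_HFD 4. With array weights the genotype difference over both diets was 0.040 for Cd36, -0.027 for Lpl, 0.058 for Pparg, -0.00389 for Slc27a4 and 0.059 for Vldlr, the wild-type diet difference of Vldlr was -0.017, the heterozygous one of Slc27a5 -0.00926, the high-fat genotype difference of Slc27a1 0.00439 and the diet difference of Slc27a2 over both genotypes -1.98e-06. With repeated quantile normalization the heterozygous diet difference was -0.019 for Slc27a4 and -0.030 for Slc27a5, the wild-type one of Pparg -0.018, that over both genotypes of Slc27a2 -0.00952, the high-fat genotype difference of Slc27a4 0.00155, and the genotype difference over both diets -0.010 for Lpl, 0.017 for Pparg and 0.015 for Slc27a5. With the random block the heterozygous diet difference of Slc27a2 was 0.00981, the wild-type one of Pparg -0.014, the high-fat genotype difference of Slc27a4 0.019 and its interaction 0.017.

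With 1 array left out, some differences also crossed 0. The wild-type diet difference then ran over -0.00172 to 0.36 for Cd36, -0.13 to 0.037 for Lpl, -0.029 to 0.088 for Pparg, -0.00133 to 0.041 for Slc27a2 and -0.11 to 0.19 for Vldlr. The genotype difference over both diets then ran over -0.071 to 0.050 for Lpl, -0.055 to 0.061 for Pparg, -0.00955 to 0.028 for Slc27a4 and -0.094 to 0.056 for Vldlr. The genotype difference on the high-fat diet then ran over -0.093 to 0.023 for Slc27a1 and -0.042 to 0.032 for Slc27a4. The interaction then ran over -0.053 to 0.022 for Slc27a2 and -0.068 to 0.00920 for Slc27a4. The heterozygous diet difference then ran over -0.034 to 0.041 for Slc27a2 and -0.027 to 0.13 for Marco. The diet difference over both genotypes then ran over -0.00717 to 0.030 for Slc27a2. The genotype difference on the control diet then ran over -0.012 to 0.062 for Slc27a4 and -0.024 to 0.045 for Slc27a5. No paired analysis was possible because the labels give no replicate number, and of the title numbers only 1 occurs in both diets and none in both genotypes. A second probe set could not be tried, since each of the 8 genes has 1, and only-8-array fits do not exist for contrasts over all 4 groups. The alternatives without Het_control 2 for lists and correlations were chosen after seeing the data. With 4 arrays per group the standard errors of the diet and genotype differences within a group pair ran over 0.057 to 0.26, and the wild-type interval of Cd36 reaches 0.75.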
